A study of Homo sapiens with 11 samples.

Results

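PC3 cells, an androgen-independent line grown from a bone metastasis of human prostate cancer, were compared 48 h and 24 h after siRNA transfection. The comparison took every siRNA array titled 48 h and every siRNA array titled 24 h, 8 of the 11 arrays of the series and 4 at each time. At each time 1 culture had received the negative control siRNA (siNC) and the others siRNA against HOXB13 (siHOXB13), HOXA11 (siHOXA11) or HOXA11-AS (siHOXA11-AS), so both groups held the same 4 pools and every culture carried an siRNA. All cells were seeded in RPMI medium with fetal bovine serum and transfected after the same interval, so that 48 h cultures were also older and had grown longer at harvest. No untransfected culture, no medium change and no cell count is described, and time after transfection cannot be told apart from time in culture. The other 3 arrays, titled shNC, shIBSP(1) and shIBSP(2), were taken at 48 h and entered only 1 alternative fit, of all 11 arrays together. Whether the 4 arrays of a time came from separate experiments is not described, so p-values measure only the spread between these arrays, which also holds the effects of 4 different siRNAs.

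In a culture dish, cells pass from sparse growth shortly after seeding towards a crowded, nutrient-poor layer, and the programs that follow density and medium are well known. YAP and TAZ, coactivators of the TEAD transcription factors, leave the nucleus in crowded cells, and their targets such as CCN1 and CCN2 are then made less. E2F factors switch on the DNA replication genes of dividing cells, SREBP2 switches on cholesterol synthesis when sterol is short, and HIF factors switch on glycolysis genes when oxygen is short. Small interfering RNA works in the cytoplasm, where the Argonaute protein uses 1 strand as a guide to cut a matching transcript.

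The siRNAs are shown because they are what sets the 4 pools of a time apart. HOXB13 lies on chromosome 17 (48724763-48728750, GRCh38.p14), and HOXA11 (27181157-27185232) and its antisense neighbour HOXA11-AS (27185408-27189293) lie side by side on chromosome 7. The sequences listed for the siHOXB13 pool shared 13 bases, in capitals, the end of the first being the start of the second.
HOXB13, sequence 1: ttcatgaattGAGCTAATTATGA
HOXB13, sequence 2: GAGCTAATTATGAataaatttgg
HOXA11, sequence 1: aagataaatattatattatatat
HOXA11, sequence 2: ttcaaaaaacttgtaaataaagg
HOXA11-AS, sequence 1: gagtgtatttccttttatcgtca
HOXA11-AS, sequence 2: cggctaacaaggagatttggtca
HOXA11-AS, sequence 3: ttcttgtttttccaaacttcaag
Each was 23 bases long. A and T made up 95.7% of the first siHOXA11 sequence and 52.2% of the second siHOXA11-AS sequence. The methods combined a pair of sequences for each target, and which of the 3 listed for HOXA11-AS were used is not stated.

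Of 33616 named genes, the 16808 with the higher mean level were tested, and the median level of these genes did not separate the times (7.38 at 24 h and at 48 h on the log2 scale, exact permutation test, two-sided, p = 1.00). The cells carried the markers of the line at both times, with KRT8 between 15.85 and 17.01, EPCAM between 15.35 and 16.29 and VIM between 11.65 and 12.90. The prostate secretory gene KLK3 stayed between 5.82 and 6.57, and the leukocyte gene CD14 and the fibroblast gene DCN did not pass the filter on dim genes. Other markers of these cell types did pass it, with the leukocyte gene PTPRC at 6.22 to 7.09, the T cell gene CD3E at 4.58 to 5.88 and the fibroblast collagen gene COL1A1 at 7.99 to 8.86. Arrays of the same time were closer to each other at 24 h than at 48 h, with root mean square log2 distances of 0.418 to 0.524 at 24 h, 0.535 to 0.875 at 48 h and a median of 0.592 between the times. The medians were 0.482 within 24 h and 0.707 within 48 h, so the 48 h arrays did not group by time. Without siHOXA11 at 48 h the median was 0.618 within 48 h and 0.54 between the times. The siHOXA11 array at 48 h stood farthest apart, at 0.748 to 0.875 from the other 7. HOXB13 went against the titles of a pair of 48 h arrays, with 8.52 on the array titled siNC and 10.36 on the array titled siHOXB13. The mean of a time does not depend on which of its arrays holds which siRNA.

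No gene passed the test of 48 h against 24 h. At a Benjamini-Hochberg adjusted p of 0.05 the limma fit called 0 of 16808 genes (0%), and the smallest adjusted p was 0.0885. At an unadjusted p under 0.05 there were 1244 genes (7.40%), 679 higher at 48 h (4.04%) and 565 lower (3.36%). On 789 genes (4.69%) the groups did not overlap, which means that every 48 h array lay on the same side of every 24 h array whichever siRNA it held. Of these 789 genes, 468 were higher at 48 h (2.78% of the genes tested) and 321 lower (1.91%). Of the 468, 40 differed by at least 2-fold and 1 by at least 4-fold, and of the 321, 36 and 2. The share of higher genes depended on the scaling, being 59.3% as deposited, 46.7% after quantile normalization (421 genes higher, 2.50%, and 480 lower, 2.86%) and 47.3% with each array centred on its median. It was 42.6% without the siNC array at 24 h and 68.4% without siHOXA11 at 48 h (1050 genes higher, 6.25%, and 484 lower, 2.88%). The differences below are therefore descriptions, not calls, and genes named with overlap of the groups were not the same way round on all arrays.

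**Figure D1:**
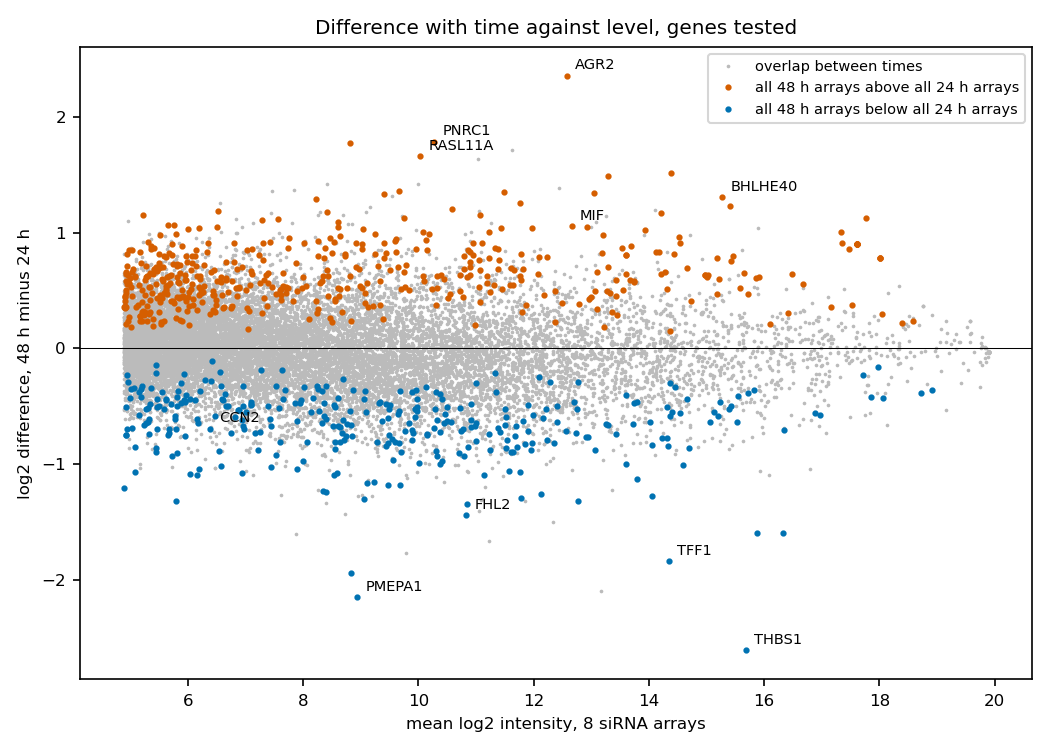
Mean log2 intensity over the 8 siRNA arrays (x) against the log2 difference of 48 h minus 24 h (y) for 16808 genes. Orange points are the 468 genes on which every 48 h array lay above every 24 h array, blue points the 321 below, and AGR2 (2.36) and THBS1 (−2.61) lie at the extremes.

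RASL11A, a small GTPase related to Ras, and PNRC1, a nuclear receptor coactivator rich in proline, had the smallest p-values of all genes. RASL11A measured 8.85, 9.09, 9.38 and 9.48 at 24 h with siNC, siHOXB13, siHOXA11 and siHOXA11-AS, and 10.97, 10.998, 10.59 and 10.87 at 48 h. PNRC1 measured 9.03, 9.71, 9.40 and 9.37 at 24 h in the same order, and 11.66, 10.92, 10.89 and 11.19 at 48 h. On both genes the lowest 48 h array lay more than 1 log2 unit above the highest 24 h array. The differences were 1.66 ± 0.21 (SE) for RASL11A and 1.79 ± 0.23 for PNRC1, 4 arrays a time, each with a limma adjusted p of 0.0885. After quantile normalization both passed, at an adjusted p of 0.0180, and without siHOXA11 at 48 h at 0.0406.

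DNTTIP1, a subunit of the mitotic histone deacetylase complex, varied little among the 24 h arrays, from 12.50 to 12.60. At 48 h it measured 13.67, 14.15, 14.47 and 13.90 with siNC, siHOXB13, siHOXA11 and siHOXA11-AS. The difference was 1.49 ± 0.21 (SE), with a limma adjusted p of 0.104. AGR2, a disulfide isomerase of the endoplasmic reticulum that many adenocarcinomas secrete, measured 11.40, 11.68, 10.55 and 11.98 at 24 h and 13.59, 14.47, 12.52 and 14.45 at 48 h. That is 5.12-fold higher at 48 h (2.36 ± 0.44), with an adjusted p of 0.384. The siHOXA11 array was the lowest of its group for AGR2 at both times, and without its 48 h array the difference was 2.77 with an adjusted p of 0.0406.

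Further genes were higher on all 48 h arrays. APOBEC3C, a cytidine deaminase that acts on viral DNA, was higher by 1.13 ± 0.19 (SE). ANK3, which tethers membrane proteins to the spectrin skeleton, was higher by 1.26 ± 0.24, and ETV1, an ETS transcription factor, by 1.21 ± 0.26. ETV1 lay between 11.40 and 11.57 on 3 arrays at 48 h and at 10.43 with siHOXA11, just above the 24 h range of 9.82 to 10.29. MIF, a secreted cytokine, measured 11.90 to 12.28 at 24 h and 12.78 to 13.47 at 48 h. CEMIP, a protein needed to break down hyaluronan, was higher by 1.05 ± 0.23, and ZNF2, a zinc finger gene, by 1.06 ± 0.22, both from 24 h levels within 3 units of the background probe sets. TMSB10P1, a pseudogene of the actin-binding thymosin beta 10 whose probes may also read the parent gene, was higher by 1.17 ± 0.23. The adjusted p-values of these genes lay between 0.246 and 0.543.

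Among genes lower at 48 h, THBS1 differed most. THBS1 encodes thrombospondin 1, a matrix glycoprotein that activates latent TGF-beta and inhibits vessel growth. It measured 16.80, 16.93, 17.38 and 16.84 at 24 h, and 14.55, 14.83, 12.67 and 15.47 at 48 h. The groups were 1.33 apart at their nearest, and the mean was 6.10-fold lower at 48 h (−2.61 ± 0.48 SE, limma adjusted p = 0.384). Without the siHOXA11 array, the lowest at 48 h, the difference was −2.04, with an adjusted p of 0.0406.

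PMEPA1, which TGF-beta induces and which in turn holds back SMAD signalling, was lower by 4.43-fold. It measured 9.55, 10.51, 10.38 and 9.62 at 24 h and 8.07, 7.17, 8.73 and 7.50 at 48 h (difference −2.15 ± 0.35, adjusted p = 0.246). FHL2, a LIM-domain coregulator of several transcription factors including the androgen receptor, measured 11.06, 11.71, 11.60 and 11.80 at 24 h and 10.51, 9.87, 9.96 and 10.09 at 48 h (−1.44 ± 0.23, adjusted p = 0.246). On both genes the siNC array lay at an end of its 24 h group, as the lowest. TFF1, a secreted trefoil peptide, measured 15.09, 15.46, 14.97 and 15.56 at 24 h and 13.10, 12.77, 13.56 and 14.31 at 48 h, 3.58-fold lower.

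The remaining genes of this kind were FSTL3, an activin-binding antagonist (−1.08 ± 0.23), NCEH1, a cholesterol ester hydrolase (−1.26 ± 0.25), GEMIN5, the subunit of the SMN complex that binds small nuclear RNA (−0.96 ± 0.21), ELL3, an elongation factor of RNA polymerase II (−1.02 ± 0.22), and ATF3. ATF3, an early stress-response factor, was close to background at both times, at 5.92 to 6.51 and 5.19 to 5.54. ATP6V1G2-DDX39B is a read-through transcript that overlaps the helicase gene DDX39B, and its value of −0.86 ± 0.19 may belong to either. RN7SL737P (−1.18 ± 0.20) and RNA5SP385 (−1.09 ± 0.24) are pseudogenes of 7SL and 5S RNA. Their adjusted p-values lay between 0.246 and 0.543. None of these 12 genes, and none of the 12 higher ones, changed direction in the other settings tried. These were 20 settings for 18 of the genes, and 19 for the 6 that the strictest filter on dim genes left out. Most of these outcomes were fixed in advance. Where groups do not overlap, leaving out or weighting arrays, or adding 16 before log2, cannot turn a direction. Other filters, siRNA as a block, an intensity trend, the t-test and the fit of all arrays keep the difference of group means. Only quantile normalization, centring on the array median and averaged probe sets could have turned a direction.

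**Figure D2:**
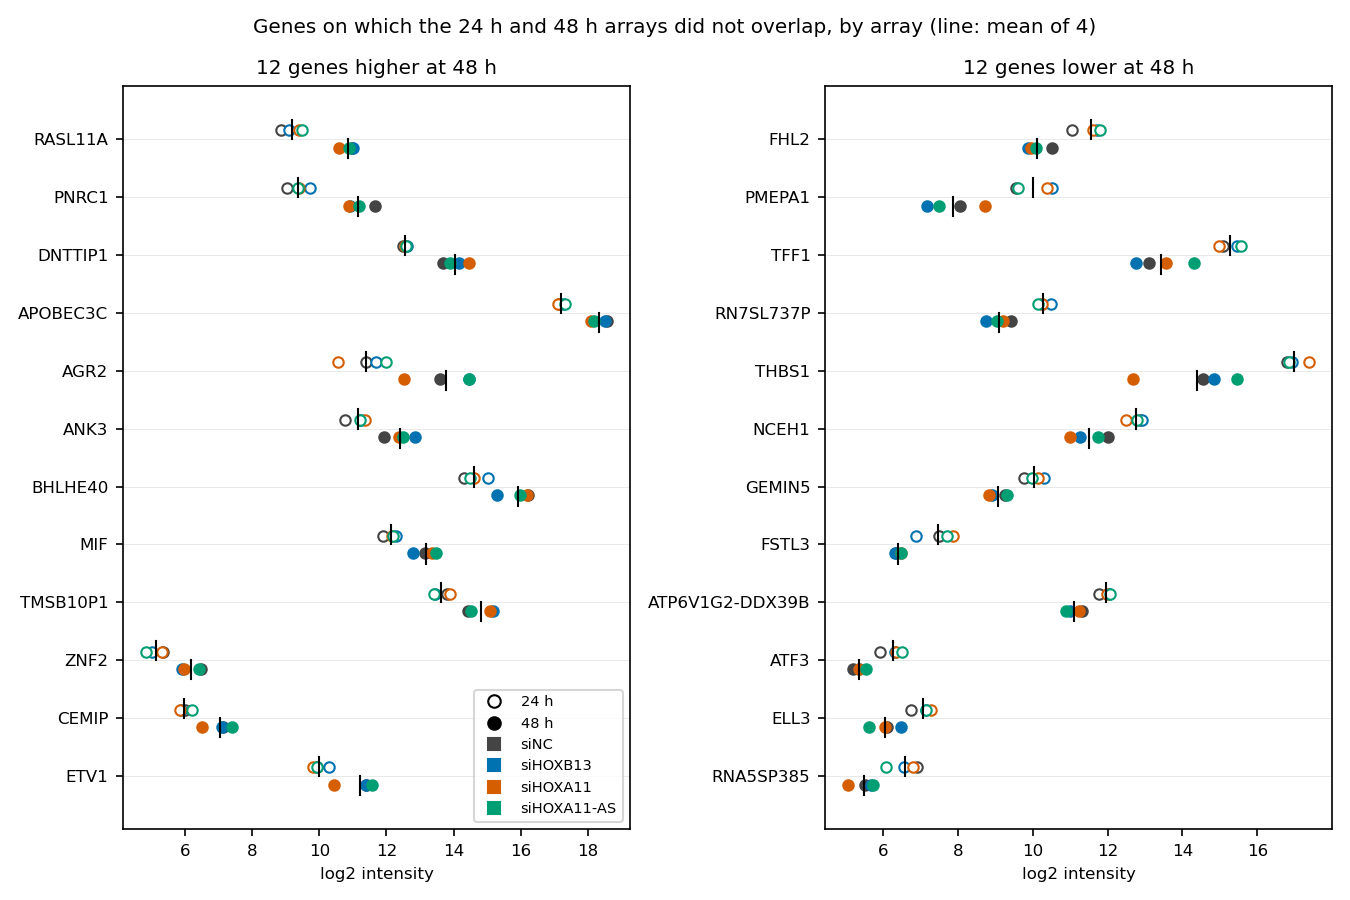
Log2 intensity (x) of the 12 non-overlapping genes with the smallest p in each direction, 1 row per gene. Open circles are 24 h arrays, filled circles 48 h arrays, coloured by pool as titled, and the short line is the mean of 4. RASL11A ran from 8.85 to 9.48 at 24 h and from 10.59 upward at 48 h.

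TEAD target genes were mostly lower at 48 h. Of 15 tested, 13 had a difference below 0 and 2 above, the median was −0.35 against 0.01 over all genes tested, and 2 did not overlap, both lower (13.3%, against 1.91% of all genes). CCN1, a matricellular protein, measured 8.73, 10.29, 9.55 and 10.62 at 24 h and 8.21, 7.04, 7.56 and 8.64 at 48 h (−1.94 ± 0.44 SE, limma adjusted p = 0.556). CCN2, its relative that promotes fibrosis, measured 6.27, 7.09, 6.59 and 7.0 at 24 h and 5.74, 6.24, 5.95 and 6.26 at 48 h (−0.69 ± 0.24). The CCN2 groups came within 0.01 of each other, so its separation is no wider than that. AJUBA, a LIM protein that inhibits the LATS kinases upstream of YAP, was lower by −1.10 ± 0.33 with overlap through the low siNC array of 24 h. With each gene set against its 24 h mean, the median of the list was −0.51 to 0.17 on the 24 h arrays and −0.79 to −0.15 on the 48 h arrays, so the list as a whole overlapped between the times. The same median over all genes tested lay between −0.11 and 0.10 on the 8 arrays. Within pools as titled, the list's median difference of 48 h minus 24 h was 0.15 for siNC and −0.88 for siHOXB13. It was −0.65 for siHOXA11 and −0.26 for siHOXA11-AS. The 48 h titles of siNC and siHOXB13 are the pair that HOXB13 went against.

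The promoters of THBS1 and CCN2 are shown as examples because both genes were lower on all 48 h arrays and both windows hold the TEAD motif GGAATG, on either strand. THBS1 was not on the list of TEAD targets. Windows are the 250 bases before the RefSeq start of each gene (GRCh38.p14), in the direction of transcription, with GGAATG and the CCAAT box in capitals for THBS1 and GGAATG alone for CCN2. The THBS1 window is chr15:39580829-39581078, plus strand, and the CCN2 window is chr6:131951373-131951622, minus strand.
THBS1: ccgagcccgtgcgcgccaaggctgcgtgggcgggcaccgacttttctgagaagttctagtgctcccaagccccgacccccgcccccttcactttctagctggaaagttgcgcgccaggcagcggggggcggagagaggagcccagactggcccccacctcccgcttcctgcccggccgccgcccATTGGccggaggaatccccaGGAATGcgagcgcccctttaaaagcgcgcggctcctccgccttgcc
CCN2: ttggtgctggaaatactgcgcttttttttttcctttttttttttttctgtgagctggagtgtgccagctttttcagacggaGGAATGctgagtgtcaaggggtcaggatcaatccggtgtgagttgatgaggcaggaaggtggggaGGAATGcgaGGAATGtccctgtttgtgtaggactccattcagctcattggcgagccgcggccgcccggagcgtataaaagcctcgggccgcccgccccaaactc
CCN2 held 3 matches. GGAATG was in the windows of 5 of 12 TEAD targets (41.7%), of 12.7% of the 10061 tested genes with a window and of 14.3% of all 27305 genes with a window. Among non-overlapping genes it was in 10.2% of those higher and 12.1% of those lower at 48 h. A match describes the sequence only.

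Cell cycle genes had a lower mean at 48 h in nearly every case, by small amounts and not in every pool. Of 24 genes of DNA replication and S phase, 23 had a difference below 0, the median was −0.44, and 3 did not overlap (12.5%, against 1.91% of all genes). CDC6, which loads the replicative helicase, measured 11.76, 12.13, 11.78 and 12.07 at 24 h and 11.51, 10.96, 10.87 and 11.23 at 48 h (−0.79 ± 0.21). MCM7, a subunit of that helicase, measured 14.15 to 14.58 at 24 h and 13.37 to 13.98 at 48 h, and E2F1, the transcription factor of the G1/S switch, 8.42 to 8.94 and 7.78 to 8.29, although E2F1 overlapped after quantile normalization. The siNC array was the highest of its 48 h group for CDC6 and MCM7. Of 24 mitosis genes, 21 had a difference below 0, the median was −0.29 and 3 did not overlap, all lower (12.5%, against 1.91% of all genes). DLGAP5, a spindle protein, was among them (15.34 to 15.49 at 24 h, 14.70 to 15.03 at 48 h). MKI67, the proliferation marker, was 0.64 ± 0.29 lower, with overlap of the groups. None of these genes passed the limma test, with adjusted p-values from 0.573 for CDC6 to 0.674 for MKI67. Without siHOXA11 at 48 h the S-phase median was −0.24 and the mitosis median −0.25. Set against the 24 h means, the S-phase median was −0.18 to 0.27 on the 24 h arrays and −1.02 to −0.10 on the 48 h arrays, with overlap. Within pools as titled, the S-phase median difference was 0.20 for siNC, −0.93 for siHOXB13, −0.74 for siHOXA11 and −0.27 for siHOXA11-AS. For mitosis genes it was −0.03, −0.31, −0.61 and −0.38 in the same order. The E2F motifs TTTGGCGC and TTTCCCGC, on either strand, were in 42.9% of the 21 S-phase windows against 3.85% of tested genes. The cell cycle homology region motifs TTTGAA and TTTAAA were in 78.9% of 19 mitosis windows against 20.7%. Among non-overlapping genes the E2F motifs were in 2.26% of those higher and 7.11% of those lower at 48 h. The homology region motifs were in 22% and 20.5%. The CDC6 window held 0 matches to the E2F motifs. A list's motif share describes the sequences of its members and not a change with time.

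**Figure D3:**
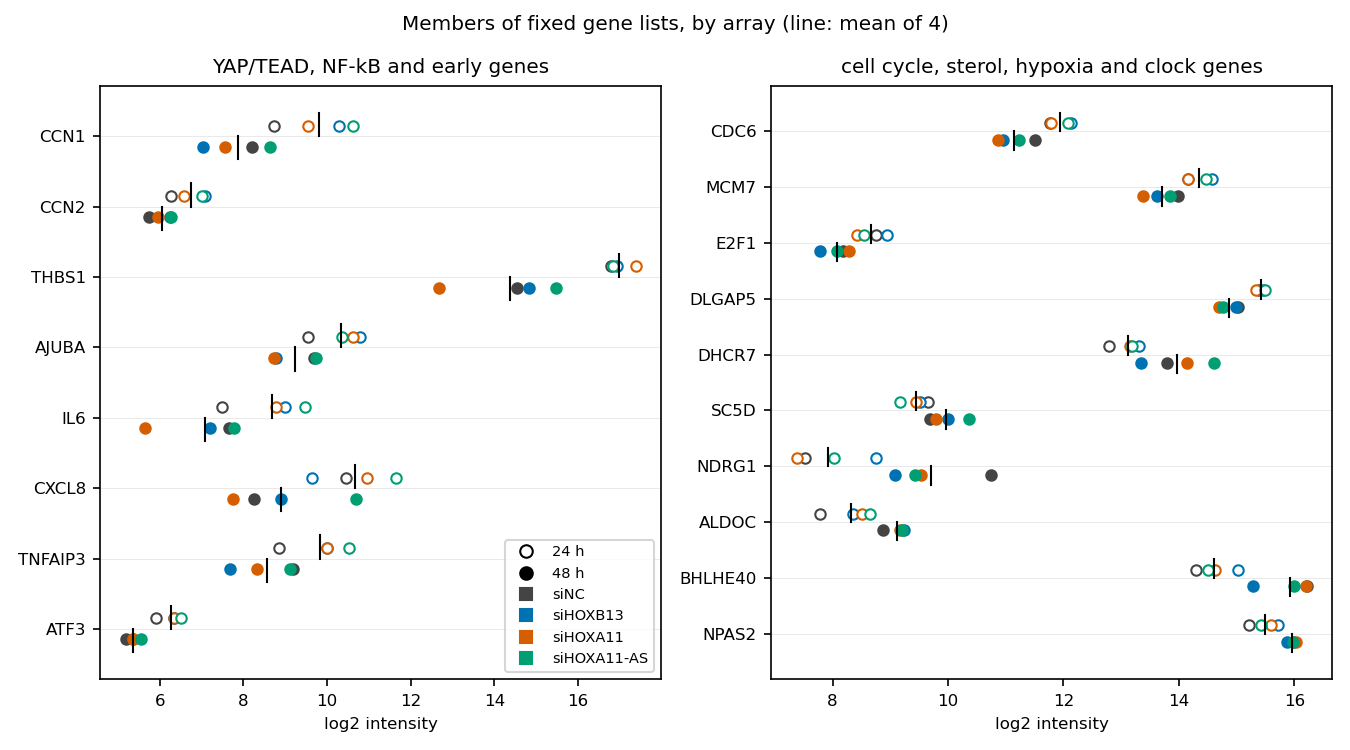
Log2 intensity (x) of members of the gene lists, 1 row per gene, with open circles for 24 h arrays, filled circles for 48 h arrays, colours by pool as titled and a line at the mean of 4. CDC6 (11.76 to 12.13 at 24 h, 10.87 to 11.51 at 48 h) did not overlap between times, while IL6 and CXCL8 did.

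Sterol genes were mostly higher at 48 h. Of 17 cholesterol synthesis and LDL uptake genes 15 had a difference above 0, with a median of 0.34, and 2 did not overlap (11.8%, against 2.78% of all genes). DHCR7, the last enzyme of the Kandutsch-Russell pathway, measured 12.79 to 13.30 at 24 h and 13.35 to 14.61 at 48 h (0.87 ± 0.27 SE, limma adjusted p = 0.598). SC5D, which makes its substrate, measured 9.17 to 9.66 and 9.68 to 10.37, a gap of 0.02 that closed after quantile normalization. SQLE, squalene epoxidase, was higher by 0.99 ± 0.44 with overlap, and PMVK, phosphomevalonate kinase, was lower by −0.67 ± 0.25. Set against the 24 h means, the list's median was −0.25 to 0.155 on the 24 h arrays, and at 48 h it was 0.14 to 0.25 on 3 arrays and 0.93 on siHOXA11-AS. The list as a whole thus overlapped between the times. Within pools as titled, its median difference was 0.45 for siNC, 0.05 for siHOXB13, −0.15 for siHOXA11 and 0.99 for siHOXA11-AS. The fatty acid synthesis list had a median of 0.06, with 0 of 13 genes free of overlap (against 4.69% of all genes).

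Hypoxia and glycolysis genes had 13 of 16 members above 0 and a median of 0.30, and 2 did not overlap, both higher (12.5%, against 2.78% of all genes). NDRG1, a stress gene that low oxygen induces, measured 7.52, 8.76, 7.38 and 8.03 at 24 h and 10.74, 9.08, 9.53 and 9.43 at 48 h, 3.42-fold higher. ALDOC, the C isoform of the glycolytic aldolase, measured 7.79 to 8.64 at 24 h and 8.88 to 9.23 at 48 h (0.79 ± 0.22). The highest NDRG1 array was the one titled siNC. Set against the 24 h means, the list's median was −0.34 to 0.34 on the 24 h arrays and −0.16 to 0.74 on the 48 h arrays, so the list as a whole overlapped between the times. Within pools as titled, its median difference was 1.07 for siNC, −0.28 for siHOXB13, −0.15 for siHOXA11 and 0.58 for siHOXA11-AS.

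In the circadian clock list 2 of 15 genes did not overlap, both higher (13.3%, against 2.78% of all genes). BHLHE40, a clock repressor that low oxygen also induces, measured 14.30, 15.03, 14.62 and 14.50 at 24 h and 16.21, 15.29, 16.20 and 15.99 at 48 h, with a difference of 1.31 ± 0.26 and an adjusted p of 0.425. NPAS2, the partner of BMAL1, measured 15.21 to 15.71 and 15.87 to 16.03. The list as a whole had a median of 0.06, with 8 members above 0 and 7 below. The windows of BHLHE40 and ALDOC are shown because both genes were higher on all 48 h arrays and both windows hold ACGTG, the core of the hypoxia response element, which lies within the clock factors' E-box CACGTG where a C precedes it. The BHLHE40 window is chr3:4979187-4979436, plus strand, and the ALDOC window is chr17:28576896-28577145, minus strand, with ACGTG on either strand in capitals.
BHLHE40: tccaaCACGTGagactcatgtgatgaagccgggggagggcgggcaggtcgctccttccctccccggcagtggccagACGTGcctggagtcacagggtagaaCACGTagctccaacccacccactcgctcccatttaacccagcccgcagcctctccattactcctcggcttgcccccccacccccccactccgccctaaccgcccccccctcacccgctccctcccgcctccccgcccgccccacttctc
ALDOC: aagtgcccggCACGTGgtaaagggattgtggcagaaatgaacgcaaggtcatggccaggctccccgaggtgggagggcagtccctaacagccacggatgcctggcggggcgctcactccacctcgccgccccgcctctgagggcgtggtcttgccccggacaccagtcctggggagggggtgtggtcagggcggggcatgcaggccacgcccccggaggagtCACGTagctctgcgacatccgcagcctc
With both strands counted, BHLHE40 held 4 matches and ALDOC 3, since CACGTG holds ACGTG on each strand. The window of MIF, also higher on all 48 h arrays, held 0. ACGTG was in 9 of 13 hypoxia windows (69.2%) and 9 of 15 clock windows (60.0%), against 28.0% of tested genes, 33.3% of non-overlapping higher and 31.0% of non-overlapping lower genes.

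NF-kB target genes and cytokines had 15 of 16 members below 0 and a median of −0.28, but none was free of overlap (against 4.69% of all genes). Within pools as titled, the list's median difference was 0.15 for siNC, −0.75 for siHOXB13, −0.75 for siHOXA11 and −0.05 for siHOXA11-AS. IL6 measured 7.48, 8.99, 8.77 and 9.47 at 24 h and 7.65, 7.21, 5.65 and 7.78 at 48 h. CXCL8 measured 10.45, 9.63, 10.95 and 11.64 at 24 h and 8.25, 8.91, 7.75 and 10.69 at 48 h. TNFAIP3, the feedback inhibitor A20, was lower by −1.27 ± 0.41. For IL6 and TNFAIP3 the overlap came from the siNC array of 24 h, the lowest of its group. For CXCL8 it came from siHOXA11-AS, whose 48 h array exceeded a pair of 24 h arrays.

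Protein-folding genes did not move as a block. Of 16 ER chaperones and unfolded protein response genes 12 had a difference above 0 (median 0.22), and PDIA3, a thiol oxidoreductase, measured 15.33 to 15.76 at 24 h and 15.86 to 16.54 at 48 h. Of 13 heat shock genes 2 were higher and 2 lower without overlap, 15.4% each way against 2.78% and 1.91% of all genes. BAG3, the co-chaperone of selective autophagy, measured 12.89, 14.07, 13.76 and 13.74 at 24 h and 15.52, 14.31, 15.64 and 15.06 at 48 h (1.52 ± 0.33, limma adjusted p = 0.543). DNAJB1, an HSP40 protein, was higher by 0.51 ± 0.21, and HSPH1, an HSP110 nucleotide exchange factor, lower by −0.64 ± 0.24. Of 19 lysosome and autophagy genes 2 were higher (10.5%) and 1 lower (5.26%) without overlap, against 2.78% and 1.91% of all genes. GABARAPL1, which coats autophagosomes, measured 6.49 to 7.69 at 24 h and 7.71 to 8.67 at 48 h, a gap of 0.02 that closed after quantile normalization. LAMP1 measured 12.01 to 12.51 and 12.57 to 12.83, and it also overlapped after quantile normalization. MCOLN1, a lysosomal cation channel, measured 13.52 to 13.89 and 12.62 to 13.51.

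Genes of the epithelial layer differed one by one. Of 23 tested, 18 had a difference below 0 (median −0.11) and only KRT7 did not overlap (4.35% lower, against 1.91% of all genes). KRT7, a simple-epithelium keratin, measured 16.45, 17.52, 17.41 and 17.14 at 24 h and 16.02, 14.47, 15.59 and 16.04 at 48 h (−1.60 ± 0.36, limma adjusted p = 0.562). CLDN1 was lower by −1.40 ± 0.33, and CLDN3 was higher by 0.81 ± 0.25, with the siNC arrays in the overlap for both of these tight junction claudins. In the mesenchymal list, SNAI2, the repressor Slug, was lower by −1.67 ± 0.63, with 8.30 on the 48 h array titled siHOXB13 and 10.81 on the siNC array at 24 h, where the others of that time lay above 12. None of the 13 integrin subunits tested was free of overlap (against 4.69% of all genes).

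The interferon-stimulated genes had the highest list median, 0.49 over 30 genes with 23 above 0, but 1 array stood apart. Set against the 24 h means, the list's median was −0.30 to 0.12 on the 24 h arrays, and at 48 h it was −0.49 to 0.245 on 3 arrays and 2.13 on siHOXA11-AS. ISG15, a ubiquitin-like modifier, measured 8.02, 8.87, 8.53 and 10.67 at 48 h against 7.66 to 8.59 at 24 h. MX1, an antiviral GTPase, was among the 5 genes with the widest range between pools, from 8.05 with siHOXA11 to 16.52 with siHOXA11-AS at 48 h. Only HERC6 of this list did not overlap (3.33% higher, against 2.78% of all genes).

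The lists not yet described had medians within 0.25 of 0. The membrane-associated genes that the study listed on these arrays had a median of −0.22 over 71 genes, and against the 24 h means its median was −0.81 to 0.39 on the 24 h arrays and −1.43 to 0.54 on the 48 h arrays. It held 1 non-overlapping gene, AP1S3 (1.41%, against 4.69% of all genes). Since that list was chosen on these samples, its directions are not independent. RNA interference genes had 9 of 14 below 0 and none without overlap (against 4.69% of all genes). Of the genome of mitochondria 7 genes were tested, among them CYTB at 19.74 to 19.93, the upper end of the intensity scale, so a difference at that level could not have been seen. Below that level lay ND3 (14.03 to 14.95, difference −0.31), ND2 (13.96 to 14.57, −0.18) and ND6 (15.60 to 16.07, 0.18), each with overlap between the times.

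**Figure D4:**
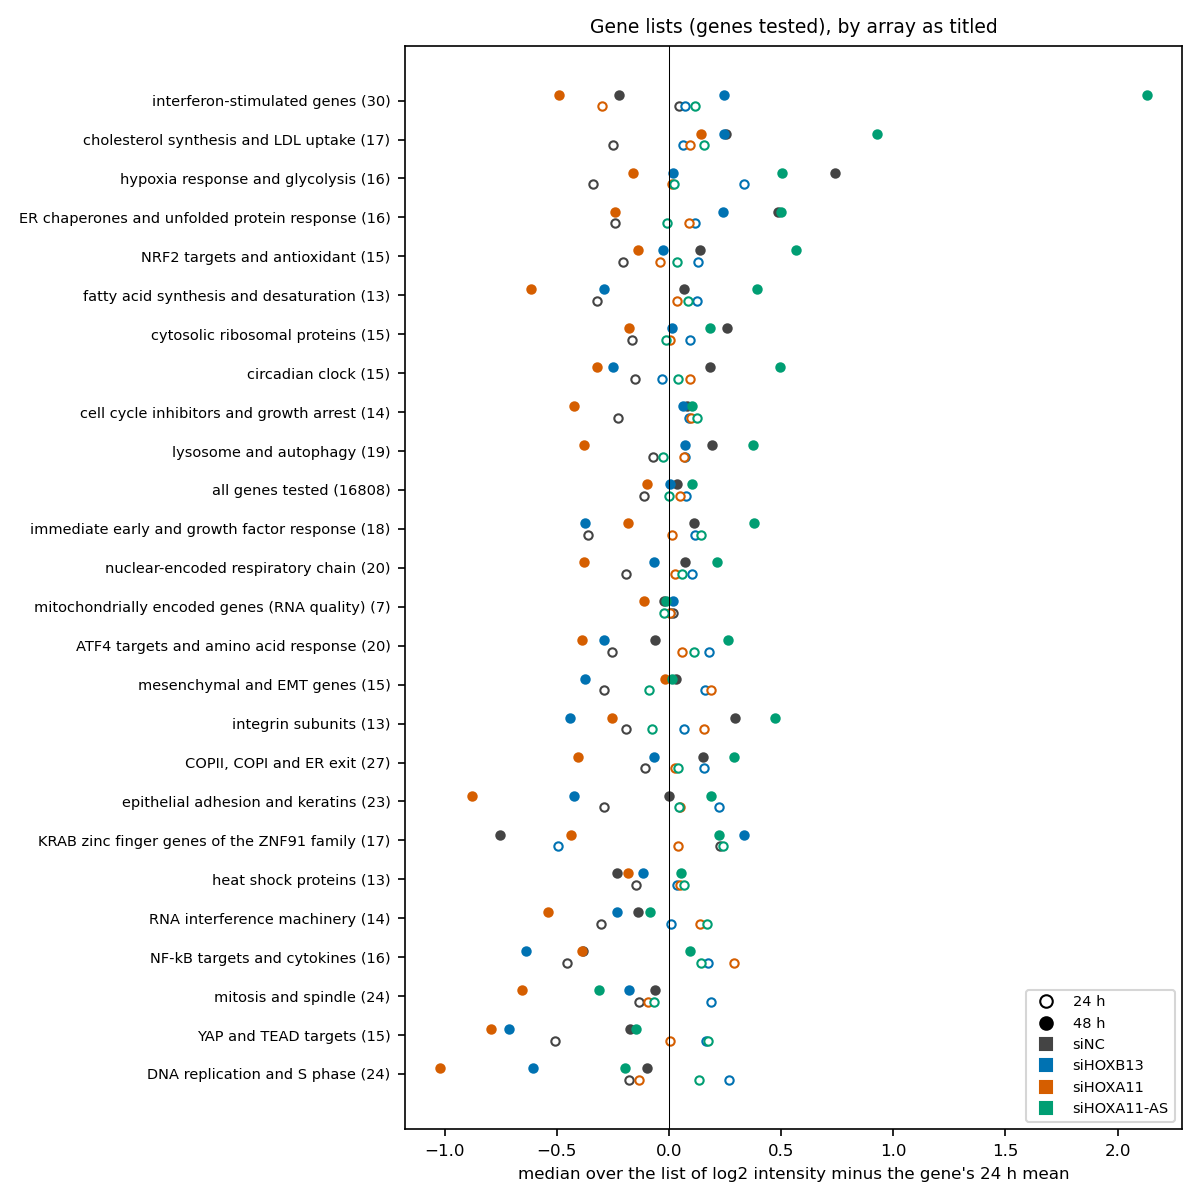
Median over each gene list, other than the study's own and the leukocyte markers, of log2 intensity minus the gene's 24 h mean (x), with the number of genes tested in brackets. Open circles are the 24 h arrays and filled circles the 48 h arrays, coloured by pool as titled, and lists are ordered by their median difference from DNA replication (−0.44) to interferon-stimulated genes (0.49), where siHOXA11-AS at 48 h (2.13) stands apart.

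Several families of small structural RNA had higher values at 48 h, a pattern chosen after the values were seen and so given without a test. Over all genes tested, 2.78% were higher without overlap. Of 10 genes for 5S ribosomal RNA 9 were higher without overlap, but they share probes and gave only 3 distinct patterns. RNA5S11 measured 16.38, 17.55, 17.45 and 17.28 at 24 h and 18.20, 17.82, 18.14 and 18.09 at 48 h. All 5 genes for U5 RNA, the spliceosomal RNA that holds the exons, had differences above 0, from 0.52 to 1.35. RNU5A-1 measured 10.66, 10.94, 11.04 and 10.59 at 24 h and 11.76, 12.01, 13.66 and 11.21 at 48 h, and RNU5B-1 measured 8.65, 8.58, 9.0 and 8.74 at 24 h and 9.53, 9.70, 11.55 and 9.54 at 48 h. The siHOXA11 array was highest in both. U6 RNA, the catalytic RNA of the spliceosome, was higher without overlap on 3 of 3 genes, which gave only 2 distinct patterns (RNU6-7, 14.94 to 15.15 at 24 h and 15.28 to 16.56 at 48 h). The standard U1 and U4 genes and the U2 gene overlapped between the times. Of 12 genes for U1 variants 10 had differences above 0 and 1 was higher without overlap. The 4 genes for 7SL and 7SK RNA shared 1 pattern, with a difference of −0.03 at the top of the intensity scale. After quantile normalization 10 of the 5S genes, 2 of the U5 genes and 2 of the U6 genes were free of overlap. So were 1 of the standard U1 genes, 2 of the U1 variants and the U2 gene.

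Pseudogenes made up 212 of the 468 non-overlapping higher genes, 5.57% of the 3806 tested, against 203 protein-coding genes, 1.78% of 11432. Among lower genes the counts were 29 (0.762%) and 270 (2.36%). Of 511 ribosomal protein pseudogenes 32 were higher without overlap and 0 lower, with a median of 0.23, and of 465 U6 pseudogenes 53 were higher and 2 lower. After quantile normalization 3.97% of pseudogenes were higher without overlap and 1.21% lower. The median level of pseudogenes relative to protein-coding genes did not follow time alone. It was −2.15 to −2.23 on 3 of the 24 h arrays and −1.76 on siNC, and at 48 h it was −2.08 on siNC, −1.47 on siHOXB13, −1.60 on siHOXA11 and −2.15 on siHOXA11-AS. Pseudogene probes can also read the parent transcript or stretches near background, and the part of this in the counts was not tested. Among small nucleolar RNAs, 3 of 57 H/ACA genes were higher without overlap (5.26%) and 2 of 77 C/D genes (2.60%), against 2.78% of all genes, SNORA38B (13.56 to 14.05 at 24 h, 14.07 to 15.43 at 48 h) and SNORD63 (8.83 to 9.20 and 9.35 to 11.15) among them. Of 401 microRNA genes 9 were higher (2.24%) and 11 lower (2.74%), against 2.78% and 1.91% of all genes, and after quantile normalization 3 and 14. The microRNA genes with the smallest p were MIR548Z, MIR4290, MIR6818 and MIR3924, at levels under 6.3.

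The 3 sh arrays, also taken at 48 h, give levels of the same genes that no comparison above used. They were not treated with these pools and have no 24 h counterpart, so their levels are a description. For 32.5% of the 468 genes higher at 48 h all 3 sh arrays lay above the midpoint of the group means, and for 19.9% all lay below it, against 27.5% and 17.7% of the tested genes that were higher with overlap. For the 321 lower genes 28.0% had all 3 on the 48 h side and 24.6% none, against 22.8% and 29.8%. AGR2 measured 13.73 to 14.17 on the sh arrays, BHLHE40 15.84 to 16.11 and APOBEC3C 18.20 to 18.43, all on the 48 h side. RASL11A measured 8.81 to 9.22, THBS1 17.56 to 17.99 and ATF3 7.47 to 8.25, all on the 24 h side of the midpoint. The genes with the clearest difference between the siRNA times thus did not share 1 level on all arrays taken at 48 h.

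Of the genes the study measured, HOXB13, HOXA11-AS, MMP3, CDH1 and CCR2 passed the filter and overlapped between the times. HOXA11 was not analysed here, since the annotation used here pairs no probe set with that symbol. HOXB13 was 0.62 higher at 48 h (exact permutation test, two-sided, p = 0.457, where the smallest p that 4 against 4 arrays allow is 0.0286). HOXA11-AS stayed between 6.01 and 6.68, and MMP3, a matrix metalloproteinase, between 4.72 and 5.44. CDH1, the adhesion protein E-cadherin, ranged from 10.56 to 13.76 at 24 h and from 11.35 to 13.98 at 48 h, and its direction turned in 4 other settings. CCL2, a chemokine, measured 3.41 to 4.36 and IBSP, bone sialoprotein, 3.38 to 4.40, both close to the background probe sets at 3.26 to 3.30 and under the filter. CCR2, the receptor of CCL2, measured 4.87 to 5.65.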

How the data were processed

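RNA of PC3 cells was hybridized to human Clariom D arrays, 1 per condition. The authors deposited 1 linear intensity per probe set and array, which per the labels' processing notes came from Affymetrix Expression Console. No source used here states its version, how probes were summarized or how arrays were scaled to each other. Values ended just under the top of the scale, so abundant transcripts are compressed. Log2 was taken before any step, although log2 values had been planned for, and no further scaling was applied as the main choice.

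The table held 138745 probe sets, of which 2995 were controls, 36176 had 1 gene symbol in the platform annotation, 1119 several and 98455 none. For the 1576 genes with several probe sets the brightest on average was taken, and the 16808 named genes with the higher mean over the 8 arrays (mean log2 of at least 4.89) were kept. The 23 background probe sets had medians of 3.26 to 3.30. The number of arrays limits the precision.

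limma 3.58.1 in R 4.3.3 (lmFit, eBayes) was fitted with time as the only term, 4 arrays against 4 with 6 residual degrees of freedom, and adjusted over all genes tested by Benjamini-Hochberg. The script was tested on simulated data. Groups do not overlap where all 48 h values lie above, or all below, all 24 h values. Errors are standard errors of the fit. Per array values are log2 intensities in the order siNC, siHOXB13, siHOXA11, siHOXA11-AS. The methods describe no test for the arrays. Pools were not used as pairs in the main fit: deviations of a pool's arrays from their group means correlated at −0.25 for siNC, −0.17 for siHOXB13, 0.15 for siHOXA11 and 0.34 for siHOXA11-AS. Differences within pools follow the titles and are descriptions.

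The 27 gene lists and 8 gene classes and the comparison itself were chosen with earlier results of these data known. Genes named are the 12 non-overlapping genes with the smallest p in each direction, up to 4 members of each list and of each noncoding class with the smallest p, the genes the study measured, and the 5 with the widest range between pools. The small structural RNAs are an exception, picked after their values were seen. Pathway lists are described by counts and medians without a test. Mitochondrial genes were matched through RefSeq synonyms. Gene coordinates, biotypes and promoter windows come from RefSeq (GRCh38.p14), and siRNA sequences from the study's supplement. Python 3.11.15, numpy, pandas, scipy and matplotlib were used. Alternatives were 2 other filters for dim genes, quantile normalization, centring on the array median, averaged probe sets, all probe sets, siRNA as a block, an intensity trend, array weights, all 11 arrays, a t-test, 16 added before log2, and leaving out arrays.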

Additional observations from a re-analysis of the deposited data

Results flagged for a closer look

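In 159 named genes and 2 times, 318 groups of 4 arrays were checked for 1 array far from the others, by its gap to the nearest over the range of the group. Above Dixon's critical value for 4 samples, 16 groups (5.03%) stood out, and chance flags about 1 in 20. Of the 16, 7 were siNC at 24 h and 3 siHOXA11 at 48 h.

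On siNC at 24 h the low values were LMAN1, an ER cargo receptor (14.88 against 15.71 to 15.86, ratio 0.853), ETV4 (12.59, ratio 0.965), SNAI2 (10.81, ratio 0.877), KCNMA1, a potassium channel (12.62, ratio 0.899), TULP3, a cilium trafficking factor (8.67 against 12.18 to 12.58, ratio 0.899), LINC00882 (4.94, ratio 0.938) and SCARNA5 (9.58, ratio 0.848). On siHOXA11 at 48 h EPRS1, the tRNA synthetase for glutamate and proline, was low (7.76 against 12.45 to 12.84, ratio 0.924), as was ETV1 (ratio 0.854), and SNORD63 was high (11.15, ratio 0.927).

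The other arrays gave 1 flag each: MDM2 with siHOXB13 at 24 h (9.66, ratio 0.853), SPRY4 with siNC at 48 h (7.69 against 9.20 to 9.22, ratio 0.988), IRF9 with siHOXA11 at 24 h (7.44, ratio 0.857), HERC6 with siHOXA11-AS at 48 h (8.86, ratio 0.892), MCOLN1 with siHOXA11-AS at 24 h (13.89, ratio 0.832) and SCARNA5 with siHOXB13 at 48 h (10.27, ratio 0.918). The cause was not tested for any of them.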

How the results depend on the processing

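The count of genes called was 0 except for 2 after quantile normalization, 2 with median centring (RASL11A and PNRC1 in both), 4 with array weights (with PMEPA1 and DNTTIP1), 4 with all 11 arrays in 1 fit (with DNTTIP1 and FHL2), and 0 to 6 when 1 array was left out, the 6 being RASL11A, THBS1, AGR2, PNRC1, PMEPA1 and ETV1 without siHOXA11 at 48 h. The smallest adjusted p ran from 0.0153 with all 11 arrays to 0.515 without the pair of 48 h arrays in doubt. The t-test called 0 genes after adjustment and 1170 before. Non-overlapping genes numbered 789 as reported, 1322 without a filter on dim genes, 469 among the 8404 brightest genes, 4627 over all probe sets, 2710 without the pair of 48 h arrays in doubt and 1152 to 1539 when 1 array was left out, where fewer arrays have to agree. With siRNA as a replicate block 0 genes were called and 1179 had an unadjusted p under 0.05. By their deviations, siHOXA11 and siHOXA11-AS at 24 h correlated best with the 48 h arrays of the same titles (0.15 and 0.34). The siNC array at 24 h correlated best with the 48 h array titled siHOXB13 (0.44), and siHOXB13 at 24 h with the one titled siNC (0.32). Whether these titles were exchanged was not tested.

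Over 159 named genes, 3102 of 3140 differences kept direction and side of the threshold, 18 passed it and 20 turned, on 9 genes, none of which had an unadjusted p under 0.05. The cause was not tested. The other filters, siRNA as a block, the intensity trend, the t-test and the fit of all arrays keep the difference of group means. Those settings could not turn a direction. CYC1 turned to 0.0227 and MMP3 to −0.0681 without the pair of 48 h arrays in doubt, RPL14 to −0.0695 and ZNF506 to 0.0436 with the mean of probe sets, and CDH1 to −0.0475 with array weights. TULP3 (−0.06) turned to 0.0113 after quantile normalization, 0.0899 with array weights and 0.686 without the pair in doubt. Leaving out 1 array turned 5 genes, whose differences then ranged from −0.97 to 0.811 for TULP3, −0.359 to 0.706 for CDH1, −1.02 to 1.80 for MX1, −0.393 to 1.33 for IFI44L and −1.28 to 0.41 for EPRS1, the last value without siHOXA11 at 48 h. Levels under 5 lie close to background, and levels near 19.9 at the top of the scale, and differences there are compressed.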
